A study of Mus musculus with 6 samples.

Results

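The receptor genes described here encode chemokine, lipid, nucleotide and amine receptors and the receptors that carry only a Gpr number. They are nearly all G protein-coupled receptors, membrane proteins that bind a ligand outside the cell and signal through heterotrimeric G proteins. The members were the rows whose mouse symbol began with one of the family names (Ccr, Cxcr, Cx3cr, Xcr1, Ackr, S1pr, Lpar, P2ry, Ptger, Ptgdr, Ptgir, Adora, Adrb, Drd, Htr, F2r, Ffar, Cnr or Gpr with a number). Cxcr6 and symbols marked as pseudogenes were left out. This gave 102 of the 13685 rows of the count table. The GENCODE M21 annotation holds 158 protein-coding genes that meet the same rule, and 57 of them, among them Ccr2, Ccr6, Cxcr5, Ptger4 and P2ry10, were not analysed here. The symbol rule itself uses no measured value.

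RNA was sequenced from CD4+ T cells of WT C57BL/6 mice in 6 libraries. In 3 libraries the cells had been cultured for 4 h with tunicamycin at 0.15 µg/mL, and in the other 3, called vehicle, without it. The cells of all 6 came from spleen and mesenteric lymph node, and only the CD25-negative fraction without regulatory T cells went into culture. The titles list the controls as given no treatment, while the protocol has them receive vehicle. Replicates are named technical in the titles, with no separate animal or culture given for each, and p-values therefore describe no more than variation from library to library. Summed counts were between 10584276 and 11211270 in tunicamycin libraries and between 7412151 and 9495725 in vehicle libraries. Of 13 listed T cell markers, 6 had a row, and their summed level was 2886 to 3036 TPM (the deposited transcript level, scaled for length and library) in tunicamycin libraries and 2811 to 2966 TPM in vehicle libraries. Cd4 itself was not analysed here. The 3 B cell markers with a row summed to at most 1.20 TPM in tunicamycin libraries and 1.22 TPM in vehicle libraries. Other cell types left more RNA. The 5 plasma cell markers with a row summed to 26.3 to 192 TPM in tunicamycin libraries and 22.2 to 185 TPM in vehicle libraries. The CD8 T cell marker Cd8b1 had 10.5 to 11.9 TPM in tunicamycin libraries and 9.47 to 10.8 TPM in vehicle libraries.

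In resting T cells, chemokine and sphingosine 1-phosphate receptors direct recirculation. CCR7 brings cells into lymph nodes along CCL19 and CCL21, and S1PR1 lets them leave again towards the higher sphingosine 1-phosphate of lymph and blood. Many of these receptors carry N-linked glycans on their outer segments. Tunicamycin blocks N-linked glycosylation by inhibiting DPAGT1 and thereby causes stress in the endoplasmic reticulum. The libraries measure transcripts, and neither the receptor protein nor its glycans.

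A few genes made up nearly all of the transcripts of the 102 receptor genes with a row. The summed level of the 102 genes was 1945, 2010 and 2072 TPM in tunicamycin replicates 1 to 3 and 1968, 1934 and 2030 TPM in vehicle replicates 1 to 3. S1pr1 and Ccr7 together held 60.0% ± 1.12 of this sum in tunicamycin libraries and 61.2% ± 1.04 in vehicle libraries (SD, n = 3 each). The 10 highest genes held 95.2% ± 0.419 in tunicamycin libraries and 95.3% ± 0.731 in vehicle libraries (SD, n = 3 each). In all, 22 of the 102 genes (21.6%) had a mean of at least 1 TPM, against 20.7% of all rows. By contrast, 35 (34.3%) had 0 counts in every library, against 50.7% of all rows. At 0 counts, a limit of 3 counts allows up to 0.283 CPM (counts scaled to a sum of 1000000 over the rows) in a tunicamycin library and up to 0.405 CPM in a vehicle library, for counting error only. These RNA levels come from bulk samples, in which fewer cells of a type and less RNA per cell cannot be told apart.

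**Figure D1:**
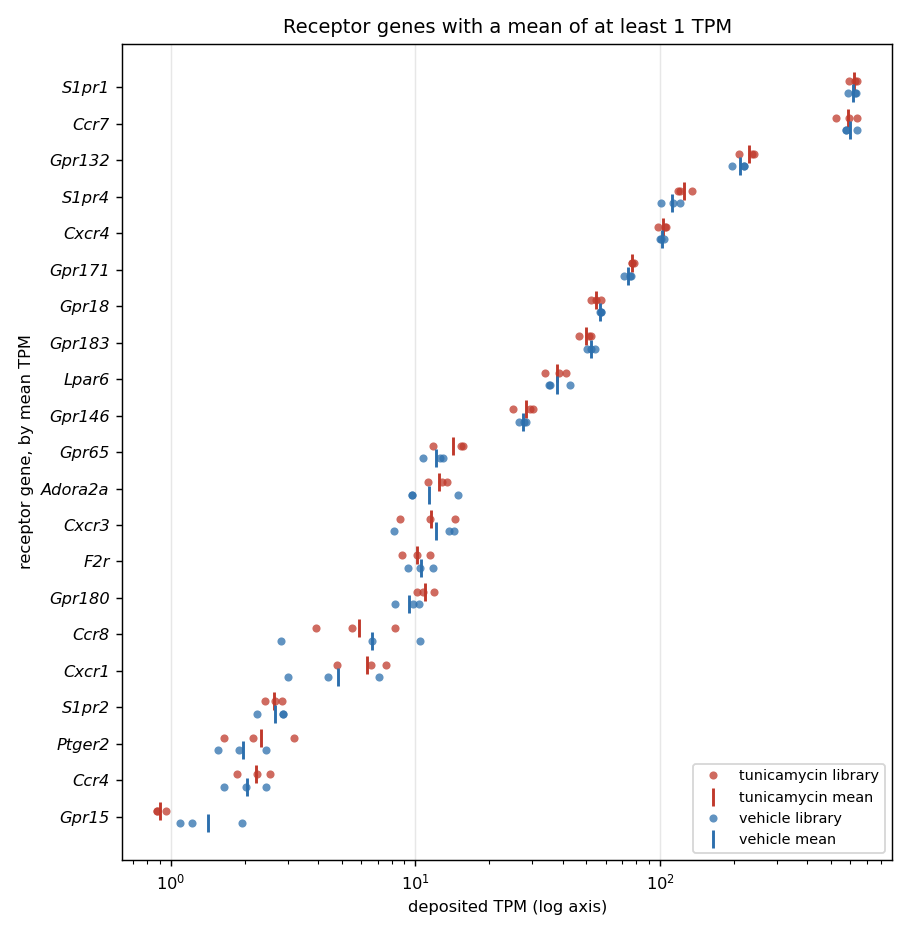
Deposited TPM on a log axis for 21 of the 22 receptor genes with a mean of at least 1 TPM, ordered by mean. Each point is a library, with the 3 tunicamycin libraries above the 3 vehicle libraries of the same gene, and the vertical ticks are group means. S1pr1 and Ccr7 lie apart from the other genes in every library, at 525 TPM or more, and the points of both groups intermix for most genes.

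S1pr1 (ENSMUSG00000045092), the receptor for lymph node egress, was the highest receptor gene with a row and ranked 60 among all 13685 rows by mean TPM. It had 641, 594 and 628 TPM in tunicamycin replicates 1 to 3, against 631, 588 and 625 TPM in vehicle replicates 1 to 3. The groups overlapped. S1pr4 (ENSMUSG00000044199), a sphingosine 1-phosphate receptor of lymphocytes, had 135, 121 and 118 TPM in tunicamycin libraries, against 121, 100.5 and 113 TPM in vehicle libraries. Vehicle replicate 1 lay within the tunicamycin range. S1pr2, which couples to G12 and G13 and restrains migration in several cell types, had 2.65 ± 0.219 TPM in tunicamycin libraries and 2.66 ± 0.364 TPM in vehicle libraries (SD, n = 3 each). S1pr1 therefore supplied 83.0% ± 0.833 of the sphingosine 1-phosphate receptor TPM in tunicamycin libraries and 84.3% ± 0.776 in vehicle libraries (SD, n = 3 each). S1pr5, known from NK cells, had at most 8 counts in a tunicamycin library and 14 in a vehicle library, and S1pr3 had counts in 2 vehicle libraries only.

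Among the chemokine receptors, Ccr7 (ENSMUSG00000037944) had 525, 591 and 640 TPM in tunicamycin replicates 1 to 3, against 573, 575 and 639 TPM in vehicle replicates 1 to 3. Replicate 3 was the highest library of each group. The ratio of S1pr1 to Ccr7 TPM was 1.07 ± 0.132 in tunicamycin libraries and 1.03 ± 0.0616 in vehicle libraries (SD, n = 3 each), so the exit and the entry receptor were listed at levels whose ranges overlapped. Cxcr4 (ENSMUSG00000045382), the receptor for CXCL12, had 98.5, 106 and 104 TPM in tunicamycin libraries, against 101, 100.1 and 104 TPM in vehicle libraries. The other chemokine receptors with a row were far below it, Cxcr3 being the highest of them. Cxcr3, the receptor for CXCL9 and CXCL10 on T helper 1 and memory cells, had 11.4, 14.5 and 8.64 TPM in tunicamycin libraries, against 14.4, 13.7 and 8.14 TPM in vehicle libraries. Replicate 3 was the lowest library in both groups. Ccr8, a receptor for CCL1 found on some regulatory and memory T cells, had 3.93, 5.50 and 8.23 TPM in tunicamycin libraries, against 2.81, 10.5 and 6.64 TPM in vehicle libraries. Its levels spread most among the receptor genes above 5 TPM. Of 7 listed regulatory T cell markers only Il2ra had a row, with 7.74 to 14.1 TPM in tunicamycin libraries and 6.87 to 8.41 TPM in vehicle libraries, and its part in the spread of Ccr8 was not tested.

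Cxcr1, which binds neutrophil-attracting chemokines, had 6.33 ± 1.42 TPM in tunicamycin libraries and 4.82 ± 2.06 TPM in vehicle libraries (SD, n = 3 each). Ccr4, the receptor for CCL17 and CCL22, had 2.22 ± 0.340 TPM in tunicamycin libraries and 2.04 ± 0.401 TPM in vehicle libraries (SD, n = 3 each). Of 3 neutrophil markers with a row, Ly6g was at 0 and the sum reached at most 0.418 TPM in tunicamycin libraries and 0.236 TPM in vehicle libraries. Xcr1, which marks cross-presenting dendritic cells, had 0.109, 0.818 and 0.697 TPM in tunicamycin libraries, against 0.406, 0.327 and 0.752 TPM in vehicle libraries. Besides Xcr1 itself, 1 of 8 listed dendritic cell markers, Cd209a, had a row, and it reached at most 0.226 TPM. The scavenging receptors Ackr1, Ackr2 and Ackr4, which take up chemokines without G protein signalling, had 0 counts in all libraries. Ccr1 had 15, 24 and 0 counts in tunicamycin libraries, against 0, 5 and 5 counts in vehicle libraries. Ccr10 had at most 15 counts in any library. Cx3cr1, a fractalkine receptor of monocytes and cytotoxic lymphocytes, had 16, 0 and 0 counts in tunicamycin libraries, against 0, 0 and 27.4 counts in vehicle libraries.

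Among the Gpr-numbered genes with a row, Gpr132 (ENSMUSG00000021298), responsive to lysophospholipids and other lipids, stood first. It had 210, 243 and 238 TPM in tunicamycin libraries, against 196, 221 and 220.5 TPM in vehicle libraries. Tunicamycin replicate 1 lay within the vehicle range. Gpr171 (ENSMUSG00000050075), reported as a receptor for the neuropeptide BigLEN, had 76.6, 78.0 and 76.5 TPM in tunicamycin libraries, against 75.8, 71.4 and 75.4 TPM in vehicle libraries. Its tunicamycin values all lay above its vehicle values on the TPM scale, but not in CPM scaled for library composition. Gpr18, reported to bind N-arachidonyl glycine, had 57.3, 54.7 and 52.3 TPM in tunicamycin libraries, against 57.3, 57.1 and 56.6 TPM in vehicle libraries. Gpr183, also called EBI2, an oxysterol receptor that positions lymphocytes in follicles, had 46.7, 52.0 and 51.0 TPM in tunicamycin libraries, against 54.0, 50.1 and 52.0 TPM in vehicle libraries. The groups overlapped for both genes. Gpr18 and Gpr183 are neighbours on chromosome 14 of GRCm38 (121911253 to 121915781 and 121952551 to 121965195, both on the minus strand). Both lie within the opposite-strand gene Ubac2, and the ratio of Gpr183 to Gpr18 TPM was 0.914 ± 0.0871 in tunicamycin libraries and 0.913 ± 0.0331 in vehicle libraries (SD, n = 3 each).

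Gpr146, linked to plasma cholesterol in mice, had 25.01, 30.3 and 29.5 TPM in tunicamycin libraries, against 27.8, 28.3 and 26.4 TPM in vehicle libraries. Gpr65, also called TDAG8, a receptor that senses extracellular protons, had 11.8, 15.4 and 15.7 TPM in tunicamycin libraries, against 10.8, 13.0 and 12.6 TPM in vehicle libraries. For both genes tunicamycin replicate 1 lay below the other tunicamycin libraries. It lay below all vehicle libraries for Gpr146 and within the vehicle range for Gpr65. Gpr180, whose product differs from classical G protein-coupled receptors, had 10.9 ± 0.876 TPM in tunicamycin libraries and 9.43 ± 1.09 TPM in vehicle libraries (SD, n = 3 each). Gpr15, a receptor for homing to the colon, had 0.905 ± 0.0418 TPM in tunicamycin libraries and 1.42 ± 0.470 TPM in vehicle libraries (SD, n = 3 each). Of the 45 Gpr-numbered genes, 20 had 0 counts in all libraries, among them Gpr4, Gpr17 and Gpr39. A further 15 had counts but missed the filter on low counts, and the highest of these was Gpr141, with 5 to 10 counts in tunicamycin libraries and 4 to 10 in vehicle libraries.

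The other families had 1 or 2 genes that could be tested, except the fatty acid and cannabinoid receptors, which had 0. Lpar6 (ENSMUSG00000033446), a lysophosphatidic acid receptor, had 41.4, 33.9 and 38.5 TPM in tunicamycin libraries, against 43.0, 35.1 and 35.5 TPM in vehicle libraries. Replicate 1 was the highest library of each group. Adora2a, the adenosine receptor that raises cyclic AMP in T cells, had 11.2, 13.5 and 12.8 TPM in tunicamycin libraries, against 9.65, 14.9 and 9.66 TPM in vehicle libraries. On the TPM scale the vehicle range enclosed all 3 tunicamycin values of Adora2a. In CPM scaled for library composition, the tunicamycin range (95.9 to 123) instead enclosed the vehicle values (97.6 to 121). F2r, the thrombin receptor PAR1, had 8.85, 11.5 and 10.1 TPM in tunicamycin libraries, against 9.31, 11.8 and 10.4 TPM in vehicle libraries. Its order of replicates was the same in both groups. Ptger2, a prostaglandin E2 receptor, had 2.33 ± 0.785 TPM in tunicamycin libraries and 1.96 ± 0.451 TPM in vehicle libraries (SD, n = 3 each), and Ptger1 stayed below 1 TPM in every library. All 5 dopamine receptor genes and 5 serotonin receptor genes (Htr1a, Htr1f, Htr2b, Htr3a and Htr5a) had 0 counts. Htr3a and Htr3b met the symbol rule although they encode subunits of an ion channel.

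**Figure D2:**
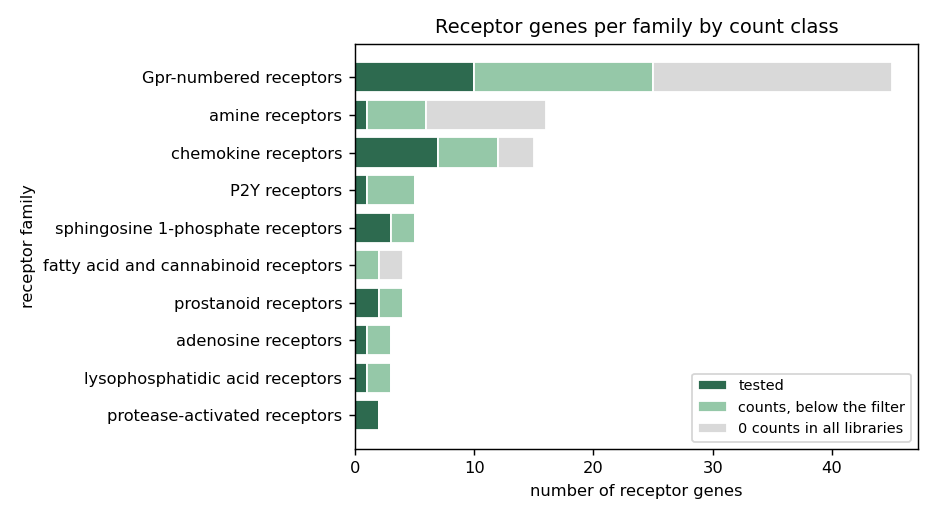
Number of receptor genes per family, split into genes tested, genes with counts below the filter and genes with 0 counts in all 6 libraries. Chemokine receptors have 7 of 15 genes tested and amine receptors 1 of 16.

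Read down the order of mean TPM, the ranges of neighbouring genes often overlapped. Of the 21 neighbouring pairs among the 22 genes, 13 had overlapping ranges over the 6 libraries and 8 did not. S1pr1 and Ccr7 overlapped, as did S1pr4 and Cxcr4, and Gpr18 and Gpr183. Within a library, however, S1pr4 was above Cxcr4 and Gpr18 above Gpr183 in all 6, while S1pr1 was above Ccr7 in 4. Below Gpr146 the genes down to Cxcr1 overlapped their neighbours, so their order is loose. The gaps without overlap lay below Ccr7, Gpr132, Cxcr4, Gpr171, Gpr183, Lpar6, Gpr146 and Cxcr1.

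The members shared features of gene structure that the symbol rule did not use. The largest number of coding exons in any annotated transcript was 1 for 63 of the 102 genes (61.8%), against 32.2% of the 8538 protein-coding rows. The member Gpr31a is annotated as a processed pseudogene with 0 coding exons, although its symbol does not mark it as such. A single annotated transcript was held by 60.8% of the members, against 40.5% of the protein-coding rows. Neighbours within 200 kb could differ in level. On chromosome 9, Ccr8 at 6.26 TPM lay 22.2 kb from Cx3cr1 at 0.0603 TPM. Exons of 28 members overlapped those of another gene. The processing sources do not say whether strand was used in counting, so values of genes such as Lpar6 (408 bp shared with Rb1) and Gpr65 (511 bp with Gm47566) are uncertain.

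Promoter windows of 250 bases before the annotated start were searched for motifs of the unfolded protein response, on both strands, with sequences from RefSeq on GRCm38.p6. The table held 77 of the 102 genes, with 86 windows, and 21 of the 28 genes tested, with 23 windows. The motifs were ERSE (CCAAT, then 9 bases of any kind, then CCACG), ERSE-II (ATTGG, then 1 base of any kind, then CCACG), UPRE (TGACGTGG), the ATF4 element CARE (TGATGCAAT) and, for KLF factors, CACCC. Of all 32851 windows, 0.113% held ERSE, 0.0304% ERSE-II, 0.563% UPRE and 0.167% CARE. None of these 4 was present in the 23 windows of genes tested, too few windows to expect a match at such shares. S1pr1, Ccr7 and Gpr171 had no window and were not searched. CACCC was present in 15 of those 23 windows and in 52.0% of all windows. Among all 86 member windows, ERSE occurred in Ptgdr2 and UPRE in Gpr135, both with few counts. The windows printed belong to the 4 highest receptor genes that had an entry clear of annotated exons, and to Ptgdr2. Capitals mark CACCC or its reverse complement GGGTG in S1pr4, Cxcr4 and Lpar6, and the ERSE match in Ptgdr2, which reads on the opposite strand.
S1pr4: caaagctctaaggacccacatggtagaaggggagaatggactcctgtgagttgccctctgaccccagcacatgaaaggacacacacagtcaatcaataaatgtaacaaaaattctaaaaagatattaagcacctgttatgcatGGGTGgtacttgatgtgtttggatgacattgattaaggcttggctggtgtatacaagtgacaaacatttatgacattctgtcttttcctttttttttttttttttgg
Cxcr4: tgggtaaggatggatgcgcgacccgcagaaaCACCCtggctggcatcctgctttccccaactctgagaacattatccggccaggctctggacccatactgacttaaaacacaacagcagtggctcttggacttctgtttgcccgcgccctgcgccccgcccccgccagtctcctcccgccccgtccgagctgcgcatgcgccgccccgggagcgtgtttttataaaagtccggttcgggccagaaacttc
Gpr18: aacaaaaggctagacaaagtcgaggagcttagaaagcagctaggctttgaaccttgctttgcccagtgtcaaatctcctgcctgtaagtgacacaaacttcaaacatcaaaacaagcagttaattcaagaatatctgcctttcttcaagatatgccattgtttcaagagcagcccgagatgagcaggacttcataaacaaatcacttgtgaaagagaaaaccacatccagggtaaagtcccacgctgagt
Lpar6: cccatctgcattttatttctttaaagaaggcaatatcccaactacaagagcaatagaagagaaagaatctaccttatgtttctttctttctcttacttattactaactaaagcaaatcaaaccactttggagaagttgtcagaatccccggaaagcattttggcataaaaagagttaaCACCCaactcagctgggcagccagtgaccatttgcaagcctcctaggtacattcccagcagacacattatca
Ptgdr2: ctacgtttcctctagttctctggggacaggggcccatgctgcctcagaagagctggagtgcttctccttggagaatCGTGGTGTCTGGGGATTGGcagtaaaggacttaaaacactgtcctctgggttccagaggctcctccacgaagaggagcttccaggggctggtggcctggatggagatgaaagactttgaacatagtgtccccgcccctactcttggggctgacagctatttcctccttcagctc
The windows are chr10:81500138-81500387 for S1pr4, chr1:128592300-128592549 for Cxcr4, chr14:121915889-121916138 for Gpr18, all on the minus strand, and chr14:73237641-73237890 for Lpar6 and chr19:10936910-10937159 for Ptgdr2, on the plus strand. Gpr18 held none of the 5 motifs. Ptgdr2, a prostaglandin D2 receptor of T helper 2 cells, had 2, 0 and 0 counts in tunicamycin libraries, against 0, 0 and 6 counts in vehicle libraries.

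No receptor gene passed the threshold when tunicamycin libraries were set against vehicle libraries, a comparison that addresses the response of the transcripts after 4 h with the inhibitor. The test was edgeR's 2-sided quasi-likelihood test, fitted over the 3613 genes that passed a filter on low counts, with Benjamini-Hochberg adjustment and a threshold of 0.05. Of the 102 receptor genes, 28 passed the filter and 0 were called by edgeR, against 0.083% of all genes tested (3 genes). DESeq2 also called 0 receptor genes, against 0.637% of all genes with an adjusted p. The main fit took the libraries as unpaired. With a block for replicate number, edgeR called 0 receptor genes, against 0.996% of all genes. At an unadjusted p under 0.05, edgeR had 1 receptor gene (P2ry1), against 6.42% of all genes. The groups did not overlap in CPM for 2 receptor genes (7.14%), P2ry1 and Gpr15, against 12.6% of all genes. P2ry1 passed the filter only through the tunicamycin libraries, where it was higher. The fitted log2 fold change was above 0 for 15 of the 28 and below 0 for 13, with a median of 0.02, against a median of 0.00 over all genes tested.

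**Figure D3:**
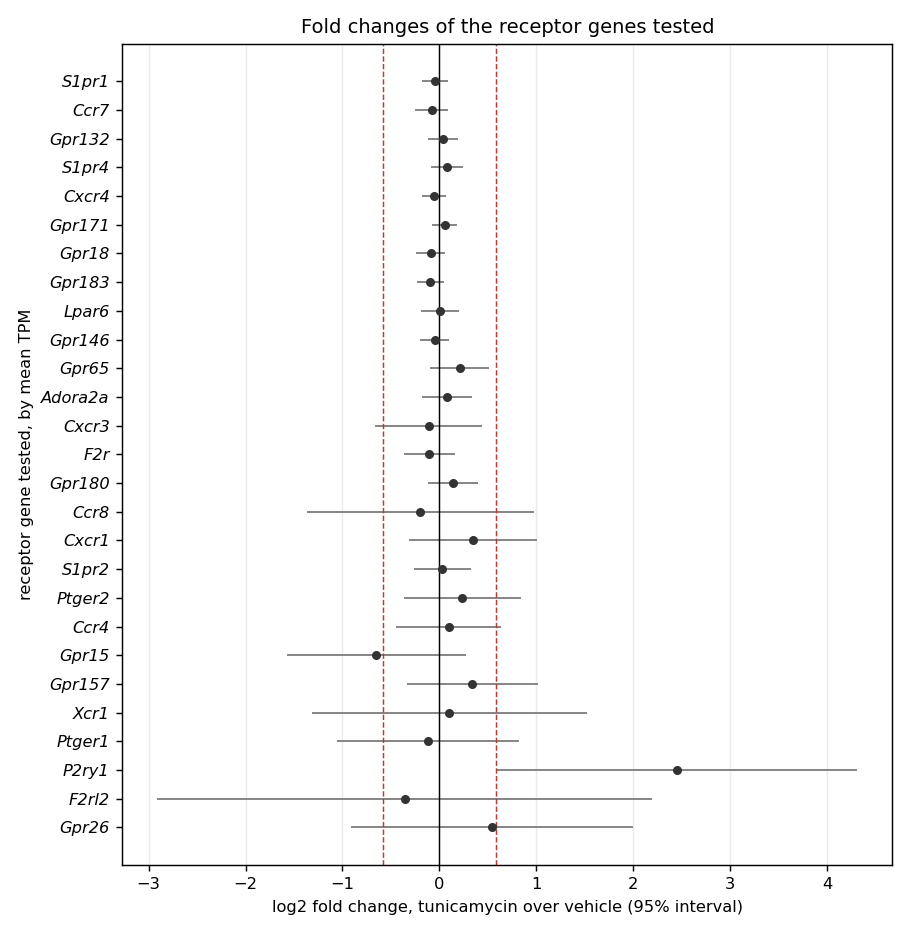
Fitted log2 fold change of tunicamycin over vehicle for 27 of the 28 receptor genes tested, ordered by mean TPM, with 95% intervals as bars. The dashed lines mark 1.5-fold changes. The 10 highest genes lie between -0.09 and 0.08 with intervals inside the dashed lines, and P2ry1 lies apart at 2.45.

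The estimates for the abundant receptors were narrow. For the 10 genes with the highest TPM, fold changes lay between -0.09 and 0.08 (log2), and the outermost interval bounds were -0.26 and 0.24. S1pr1 had 5564 ± 305 CPM in tunicamycin libraries and 5756 ± 256 CPM in vehicle libraries (SD, n = 3 each), and its fitted change was -0.05 on the log2 scale (95% interval -0.18 to 0.09, edgeR adjusted p = 0.948). Its mean TPM was higher in tunicamycin libraries, at 621 against 614 TPM in vehicle libraries, so the sign turned with the unit. Ccr7 was at -0.08 (95% interval -0.26 to 0.09) and Cxcr4 at -0.06 (95% interval -0.18 to 0.07, with the sign turned on the TPM scale). With a block for replicate number, Ccr7 was again at -0.08 (edgeR unadjusted p = 0.0574 and adjusted p = 0.491). Gpr132 was at 0.04 (95% interval -0.12 to 0.20) and S1pr4 at 0.08 (95% interval -0.09 to 0.24). Gpr171 was at 0.05 (95% interval -0.07 to 0.18), Gpr18 at -0.09 (95% interval -0.24 to 0.06) and Gpr183 at -0.09 (95% interval -0.23 to 0.05). Lpar6 was at 0.01 (95% interval -0.19 to 0.21) and Gpr146 at -0.05 (95% interval -0.20 to 0.10, with the sign turned on the TPM scale).

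Of the 17 receptor genes averaging 5 log2 CPM or more, 16 had an interval within a 1.5-fold change in either direction (94.1%, against 93.8% of all genes at that level). The exception was Cxcr3, at -0.11 (95% interval -0.66 to 0.44), whose interval stayed within 2-fold. F2r was at -0.10 (95% interval -0.37 to 0.16) and Adora2a at 0.08 (95% interval -0.18 to 0.34). The widest difference at this level was that of Gpr65, at 0.21 (95% interval -0.10 to 0.51, edgeR adjusted p = 0.872). Its unadjusted p fell under 0.05 without tunicamycin replicate 1 and in no other alternative. Gpr180 was at 0.14 (95% interval -0.12 to 0.40) and S1pr2 at 0.03 (95% interval -0.26 to 0.32, with the sign of the mean turned on the TPM scale).

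**Figure D4:**
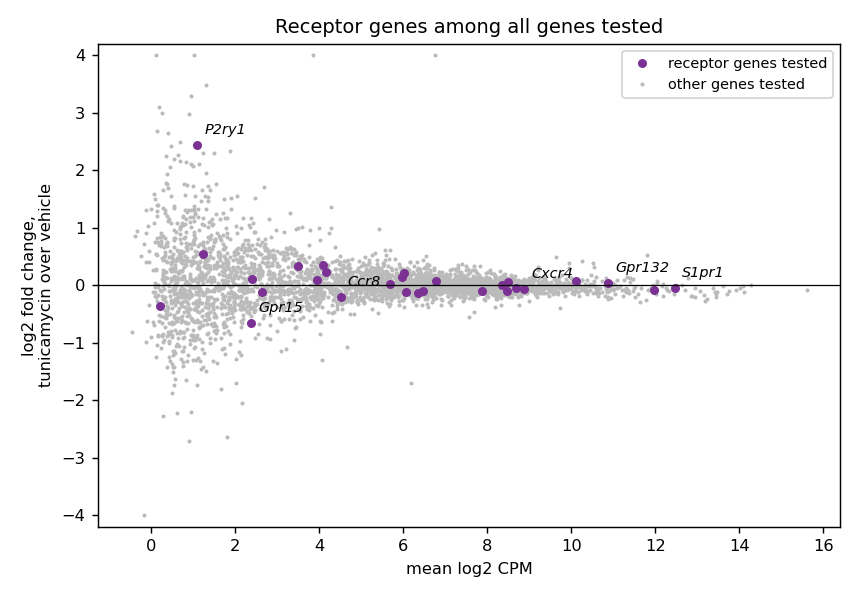
Log2 fold change of tunicamycin over vehicle against mean log2 CPM for the receptor genes tested (large points) and the other genes tested (small points). Values beyond 4 in either direction are drawn at the edge. The receptor genes lie within the cloud of other genes at their level.

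P2ry1 (ENSMUSG00000027765), an ADP receptor best known from platelets, had the largest fitted change of the receptor genes. It had 12, 45.0 and 47 counts in tunicamycin replicates 1 to 3, against 1, 4 and 9 counts in vehicle replicates 1 to 3. P2ry1 passed the filter on low counts only through the tunicamycin libraries. Its unadjusted p and its lack of overlap therefore depend on the group in which it was high, and are not support for a change. All 3 tunicamycin libraries were higher than the vehicle libraries, also as TPM (0.143, 0.513 and 0.509 in tunicamycin libraries, against 0.0211, 0.0816 and 0.138 in vehicle libraries). The log2 fold change was 2.45 (95% interval 0.58 to 4.31, edgeR unadjusted p = 0.0146 and adjusted p = 0.590), and alternatives gave adjusted p-values between 0.223 and 1.00. On the compressed log2(TPM + 1) scale limma gave 0.35, and on log2(TPM + 0.1) 1.37. Without tunicamycin replicate 2 or 3 the unadjusted p was 0.0618 and 0.0799 in edgeR. On GRCm38, P2ry1 lies on chromosome 3 from 61002795 to 61008982, and 992 bp of its exons are shared with the opposite-strand gene Gm37035. Of 10 listed erythroid and platelet markers, 8 had a row, and they summed to 2.51 to 8.24 TPM in tunicamycin libraries and 3.51 to 12.9 TPM in vehicle libraries. The platelet gene Ppbp had 2.46, 1.57 and 1.22 TPM in tunicamycin libraries, against 3.75, 4.08 and 0.747 TPM in vehicle libraries. Gp9, another platelet gene, had 0.470, 0.586 and 0.202 TPM in tunicamycin libraries, against 0.0421, 0.408 and 0.229 TPM in vehicle libraries. Of the 7 markers tested, 2 had a fold change above 0 and 0 were called. The part of platelets in the P2ry1 values was not tested.

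Gpr15 was the other receptor gene whose groups did not overlap in CPM. It had 3.96 ± 0.237 CPM in tunicamycin libraries and 6.24 ± 1.95 CPM in vehicle libraries (SD, n = 3 each), and its fitted change was -0.65 on the log2 scale (95% interval -1.58 to 0.27, edgeR adjusted p = 0.858). Vehicle replicate 1 was the highest library, and without it the change was -0.37. On the annotation 204 bp of the exons are shared with the opposite-strand gene Cpox. The remaining low genes had wide intervals. Ccr8 was at -0.20 (95% interval -1.37 to 0.98), Cxcr1 at 0.35 (95% interval -0.32 to 1.01), Ptger2 at 0.24 (95% interval -0.36 to 0.84) and Ccr4 at 0.09 (95% interval -0.45 to 0.64). Gpr157 was at 0.34 (95% interval -0.34 to 1.01), Xcr1 at 0.10 (95% interval -1.32 to 1.52) and Ptger1 at -0.12 (95% interval -1.06 to 0.82, with the sign turned on the TPM scale). Gpr26 was at 0.54 (95% interval -0.91 to 1.99) and F2rl2, the thrombin receptor PAR3, at -0.36 (95% interval -2.91 to 2.19). The intervals of Ccr8, Cxcr1, Gpr15, Gpr157, Xcr1, Ptger1, Gpr26 and F2rl2 reached beyond a 2-fold change in 1 direction or both, so a change of that size was not excluded for them.

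Receptor genes differed in how far their libraries spread. Over all 6 libraries, the highest CPM was 1.08 to 1.28 times the lowest for the 10 highest genes. It was 1.67 times for Cxcr3, 3.78 times for Ccr8, 2.28 times for Cxcr1 and 7.55 times for Xcr1. With replicates named technical, edgeR's biological coefficient of variation describes spread between libraries and need not describe animals. This coefficient was 20.9% for Cxcr3 and 42.3% for Ccr8, against 13.7% and 23.9% for the trend over all genes at their levels. It was 7.68% for S1pr1 and 7.37% for Cxcr4, against a trend of 8.81% and 8.79%. Markers of NK cells, which can also carry Cxcr3, summed to 13.2 to 18.1 TPM in tunicamycin libraries and 9.08 to 12.1 TPM in vehicle libraries, with 7 of 12 markers having a row and none at 0 throughout. In tunicamycin libraries the NK marker sum was lowest in replicate 3, as was Cxcr3, and in vehicle libraries it was lowest in replicate 2, where Cxcr3 was not. Replicate 3 also had the lowest sum of the plasma cell, macrophage and erythroid lists in both groups, but the highest of the B cell list. Plasma cell markers summed to 102, 192 and 26.3 TPM in tunicamycin replicates 1 to 3, against 94.1, 185 and 22.2 TPM in vehicle replicates 1 to 3. Macrophage and monocyte markers summed to 6.44 TPM in tunicamycin replicate 3 and 4.08 TPM in vehicle replicate 3, with up to 12.1 TPM in the other tunicamycin libraries and 13.2 TPM in the other vehicle libraries. The part of these cells in Cxcr3 was not tested.

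**Figure D5:**
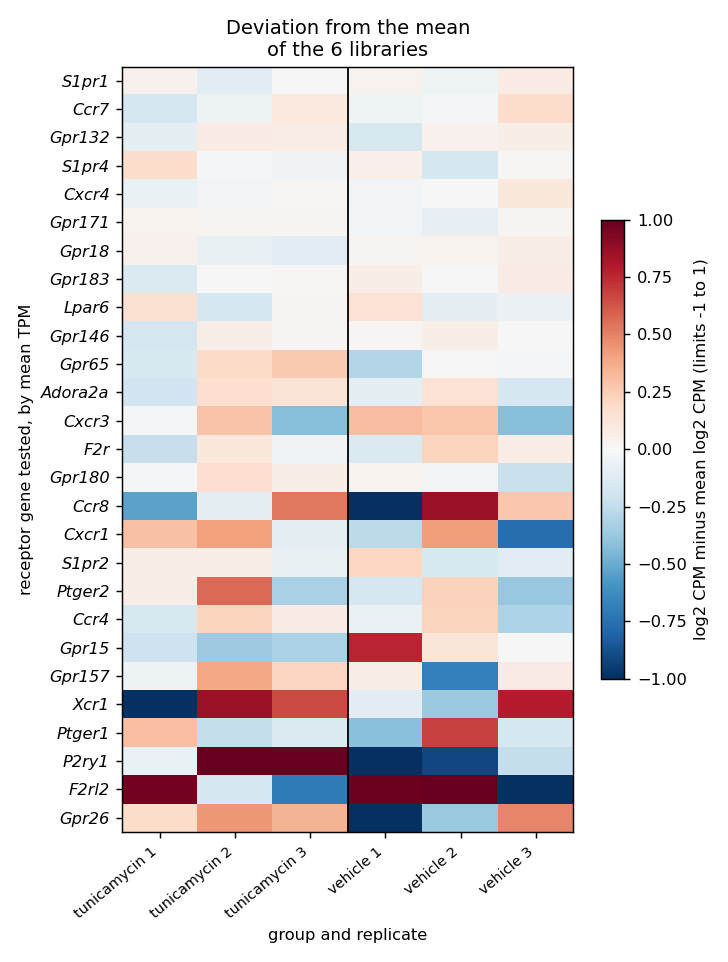
Log2 CPM of 27 of the 28 receptor genes tested, minus its mean over the 6 libraries, with 3 tunicamycin libraries left of 3 vehicle libraries and colours limited to 1 in either direction. The 10 highest genes are pale in all libraries. Cxcr3 is low in replicate 3 of both groups, and P2ry1 is high in tunicamycin replicates 2 and 3 and low in vehicle replicates 1 and 2.

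The 39 receptor genes with counts that missed the filter could not be tested. None of them exceeded 27.4 counts in a library, 22 had counts in both groups, 8 in tunicamycin libraries only and 9 in vehicle libraries only. Among them, Adora3 had at most 7 counts in a tunicamycin library and 10.3 in a vehicle library, and Adora2b had 6, 0 and 8 counts in tunicamycin libraries, against 0 in each vehicle library. Adrb1 had 6.14, 2 and 5.46 counts in tunicamycin libraries, against 0, 4.76 and 0 counts in vehicle libraries. P2ry2, P2ry4, P2ry6 and P2ry13 had at most 9 counts in a tunicamycin library and 14 in a vehicle library. Lpar3, Lpar4, Cnr1 and Ffar1 had at most 6.62 counts in any library.

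Genes that act beside the receptors were listed in 8 groups, and 54 of their 186 entries had a row. Of 27 tested, edgeR called 0, against 0.083% of all genes, and DESeq2 called 0, against 0.637%. In edgeR 3 had an unadjusted p under 0.05, against 6.42% of all genes, with a median log2 fold change of -0.00. Of 8 G protein subunits with a row, 4 were tested, with a median of 0.12, and Gnai3, an inhibitory alpha subunit used by chemokine receptors, was at -0.06 (95% interval -0.19 to 0.07), with Gna11 at -0.06 (95% interval -0.24 to 0.13, with the sign of the mean turned on the TPM scale). All 5 migration effectors with a row were tested, with a median of -0.03, and Rap1b and the GTPase Rac2 were both at -0.03. Of 5 homing genes tested, with a median of -0.03, Klf2, a transcription factor that drives S1pr1, was at -0.05 (95% interval -0.18 to 0.08), although its TPM were 485, 449 and 451 in tunicamycin libraries, against 438, 379 and 404 in vehicle libraries. On the TPM scale all 3 tunicamycin libraries were the higher ones, so the sign turned with the unit. In the same list Il7r, a receptor chain for interleukin 7, was at -0.00. Cd69, whose protein removes S1PR1 from the cell surface, was at 0.24 (95% interval -0.08 to 0.55, edgeR adjusted p = 0.841). S100a4 of that list lay further from 0 in the other direction, at -0.42 (95% interval -0.86 to 0.02, edgeR adjusted p = 0.795).

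Of 7 chemokine ligand genes tested, with a median of 0.14, 2 had an unadjusted p under 0.05, against 6.42% of all genes. Ccl5, a chemokine of memory and cytotoxic T cells, was at 0.40 (95% interval 0.08 to 0.72, edgeR adjusted p = 0.614). It had 71.6, 72.5 and 57.6 TPM in tunicamycin libraries, against 46.8, 62.6 and 40.7 TPM in vehicle libraries. Xcl1, the ligand of XCR1, was at 1.55 (95% interval 0.03 to 3.07, edgeR adjusted p = 0.725). It had 1.45, 8.66 and 3.44 TPM in tunicamycin libraries, against 1.06, 2.72 and 0.804 TPM in vehicle libraries. The groups overlapped for both genes, and tunicamycin replicate 2 stood highest for Xcl1. NK cells make both chemokines. All 6 NK markers tested had a fold change above 0, with 0 called. Prf1 and Gzma were the highest of that list in every library, and its other markers reached at most 1.53 TPM. Of 2 listed CD8 T cell markers only Cd8b1 had a row. Cd8b1 had 10.5 to 11.9 TPM in tunicamycin libraries and 9.47 to 10.8 TPM in vehicle libraries, and was not called. The part of either cell type in the Ccl5 and Xcl1 values was not tested. Of 5 ligand enzyme genes tested, with a median of 0.02, Sgpp1, which removes phosphate from sphingosine 1-phosphate, was at -0.18 (95% interval -0.34 to -0.03, edgeR adjusted p = 0.638) and Nt5e, which makes adenosine, at 0.02. Of 2 RGS genes with a row, Rgs16, which dampens G protein signalling, was tested, at 0.04 (95% interval -0.56 to 0.64). The 3 cyclic AMP genes with a row were not tested, and no receptor kinase or arrestin gene was analysed here.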

How the data were processed

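Per the submitters' processing notes, bcl2fastq, Salmon, DESeq2 and build GRCm39 were used, without versions or roles. For the annotation and for the summing of transcripts, the sources used here give nothing. The authors deposited estimated counts per gene, partly fractional and not scaled to depth, and the authors deposited TPM for the same 13685 rows. Symbols were matched for 13627 rows through GENCODE M21 on GRCm38, and positions are on that build. The rows cover a part of the transcriptome, so TPM sums stay below 1000000 and summed counts are not library depths. Libraries were made from 200 ng of RNA and read as 150 bp pairs, per the labels' protocols.

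Rounded counts went into edgeR 4.0.16 under R 4.3.3 (filterByExpr, TMM, robust quasi-likelihood F test, Benjamini-Hochberg over 3613 genes, threshold 0.05), 3 tunicamycin against 3 vehicle libraries, without a replicate block. CPM use TMM-scaled library sizes, and log2 CPM a prior count of 2. Standard errors behind the 95% intervals were derived from the F statistic. The biological coefficient of variation is edgeR's name for the square root of its dispersion, here a spread between libraries. The fit was tested on simulated counts. Levels between genes were compared on TPM only. Alternatives were DESeq2 1.42.0, limma 3.58.1 on log2(TPM + 1) and log2(TPM + 0.1), other scalings and filters, a replicate block, no robust estimation and leaving out each library. Named in full were the 15 receptor genes with the highest mean TPM (some items are not reported here), genes called or with an unadjusted p under 0.05, and all genes tested by fold change; below the filter, up to 3 genes per family were named, and per companion list up to 2 with the highest TPM. Members and lists were chosen with earlier results of these data known. Cd69, S100a4, the further genes at 0 or few counts, and genes named for overlap or position were chosen after their values were seen.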

Additional observations from a re-analysis of the deposited data

How the results depend on the processing

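No receptor gene and no companion gene was called under any alternative run. Over all genes tested, 3 were called, against 23 by DESeq2, 1 by limma on log2(TPM + 1), 16 without the filter on low counts, 1 with at least 10 counts in every library and 1 to 5 when a library was left out (1 without vehicle replicate 2, 5 without vehicle replicate 3). The replicate block gave 36 calls over all genes (0.996%) and 0 among receptor genes, whose median was 0.02. The labels do not say that a number marks shared cells, and the main fit did not take the numbers as pairs. Over all genes tested, the deviations of same-numbered libraries correlated at 0.037, 0.187 and 0.107. Over genes averaging 5 log2 CPM or more, they correlated at 0.303, 0.306 and 0.316. In both sets each library correlated best with its own number. Intervals and p-values of the main fit do not take this likeness into account. The median log2 fold change of the receptor genes was 0.02, and -0.045 without the filter, where 67 were fitted; leaving out a library gave -0.02 to 0.02. Fold changes of 13 uncalled receptor genes changed sign in 33 of 417 alternative values, each within the 95% interval of the main fit. The count of 22 genes at 1 TPM or more ran from 21 to 25 over its alternatives. Counts below about 10 per library, and triplicates that may be technical, limit what can be said of rare receptors.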
